A study of Mus musculus with 3 samples.

Results

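The genes described here carry the signal from PI3K and AKT to protein synthesis: the kinase mTOR (Mtor), the subunits that define its 2 complexes (Rptor, Rictor), the GTPase switch in front of it (Rheb, Tsc1, Tsc2), the S6 kinases (Rps6kb1, Rps6kb2), the translation repressor 4E-BP1 (Eif4ebp1) and the cap-binding protein eIF4E (Eif4e). Probes were chosen by the gene name printed on the array, with the old name Frap1 accepted for Mtor, which gave 22 probes of 8 genes. Rptor and Rictor had no probe under these names. They were found after the files were opened, through RefSeq synonyms, under the clone names 4932417H02Rik and 4921505C17Rik, which added 12 probes. All 10 genes were thus measured, by 34 of the 41174 probes, out of 27962 gene names on the array, and the main counts are given for both sets.

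Gene expression was measured in mast cell progenitors (MCps), bone marrow cells committed to the mast cell lineage. Low density mononuclear cells came from 3 WT and 3 p85α-/- mice. After 7 days of culture with 10 ng/mL of IL-3, cells that carried KIT together with the IgE receptor were sorted and then received 100 ng/mL of SCF, the ligand of KIT, over 48 hours. Both genotypes received SCF and neither was left unstimulated, so the comparison is between genotypes under SCF. Each of 3 two-color arrays carried 1 WT culture labeled with Cy3 and 1 p85α-/- culture labeled with Cy5. The dyes were not swapped, so dye and genotype cannot be told apart. p85α is a regulatory subunit of class I PI3K and is encoded by Pik3r1, which also encodes p55α and p50α. Ages and sexes of the mice are not given in the sources used here. The few sorted cells required amplification of the cDNA by PCR before labeling.

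mTOR works in a pair of complexes. With raptor (mTORC1) it phosphorylates the S6 kinases and 4E-BP1, which releases eIF4E to bind the cap of mRNAs and start translation; with rictor (mTORC2) it phosphorylates AKT. RHEB bound to GTP switches mTORC1 on, the TSC1-TSC2 complex switches RHEB off, and AKT, acting downstream of PI3K and KIT, inhibits TSC2. Most of this control runs through phosphorylation, which an array of mRNA does not measure.

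Signal differed between arrays and dyes. The median spot signal was 71.5 to 141.2 in the WT channels and 206.6 to 517.3 in the p85α-/- channels, and the share of probes well above background was 69.4 to 85.3% and 77.3 to 93.8%, respectively. After normalization, log2 ratios of p85α-/- over WT correlated weakly between arrays over all probes (r = 0.01 for replicates 1 and 2, 0.17 for 1 and 3, and -0.03 for 2 and 3). The 4 probes of Pik3r1 had mean log2 ratios from -0.58 to 0.59 and did not settle the genotype of the channels, and the names below are those of the labels. The paper reports that a western blot, not shown, found p85α lost in p85α-/- bone marrow-derived mast cells. Of 16 mast cell marker genes, 15 were well above background in all 6 channels. In such bulk samples, fewer cells of a type and less RNA per cell cannot be told apart. Each gene is described by its leading probe, the brightest over the 6 channels, as a normalized log2 intensity, and its difference as the log2 ratio within an array, given as mean ± SD (n = 3). A probe was counted as past the study's criteria at 1.5-fold with an unadjusted limma p under 0.05, and as called at a Benjamini-Hochberg adjusted p under 0.05 over 41157 tested probes.

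None of the 34 probes was called, and neither was any other probe on the array (0 of 41157, 0%), the lowest adjusted p being 0.763. At an unadjusted p under 0.05, 1829 probes, or 4.44% of all tested, were past the criteria in either direction, every probe with such a p also being past 1.5-fold. Of the 34 probes, 1 was past them, a probe of Rptor, and of the 22 found by array name, 0. Mean ratios of the 34 probes lay on both sides of 0, with 18 above and 16 below and a median of 0.03, against -0.05 for all probes. The 22 found by array name had 11 above and 11 below and a median of 0.0071. Log2 ratios had 1 sign on all 3 arrays for 7 probes that were higher in p85α-/- cells and 1 that was lower, where 12.5% and 13.3% of all probes had these patterns; among the 22 these were 5 and 1. The p85α-/- cultures lay above every WT culture for 2 of the 34 probes and below every WT culture for 0, against 4.54% and 5.94% of all probes, and among the 22 for 1 and 0.

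**Figure D1:**
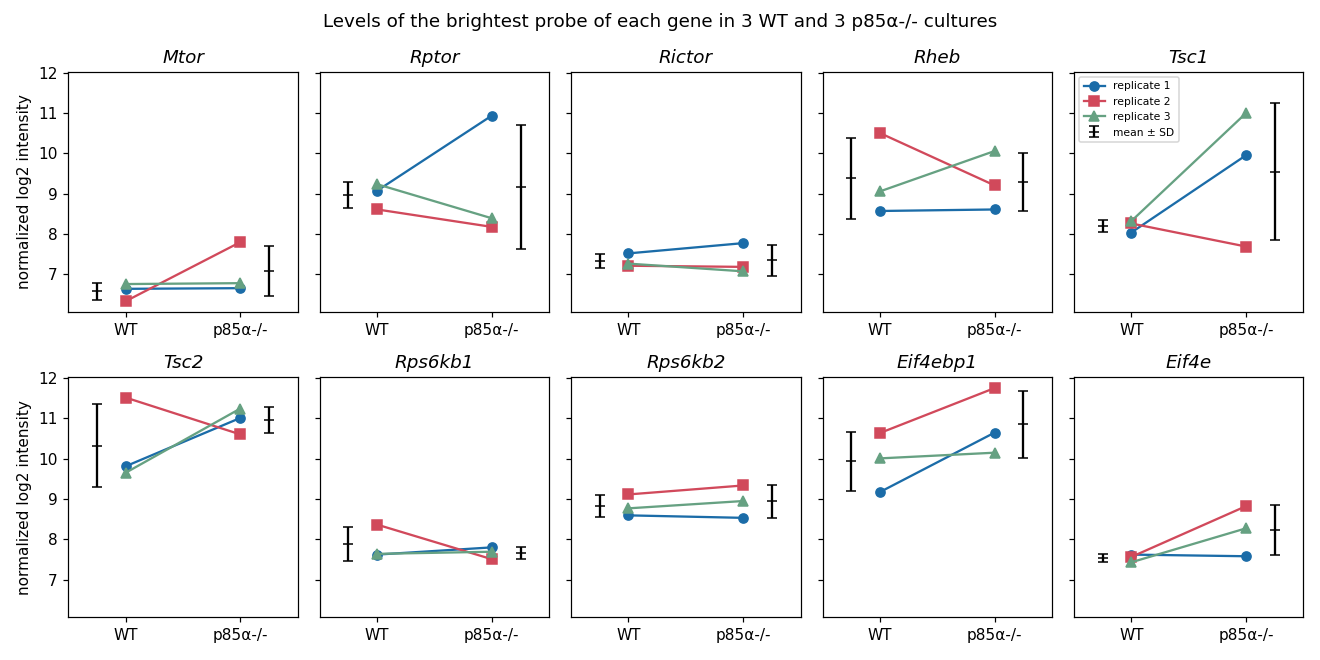
Normalized log2 intensity (vertical axis) of the leading probe of each of the 10 genes in 3 WT and 3 p85α-/- cultures. Lines join the cultures on 1 array, and bars give the mean ± SD of each genotype. The groups overlap for each of the 10 genes, and the lines of Tsc1, Tsc2, Rheb and Rps6kb1 run down on replicate 2 and up on replicates 1 and 3.

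Mtor itself was dim. Its leading probe was well above background in 0 of 3 WT and 1 of 3 p85α-/- cultures. Levels were 6.64, 6.34 and 6.76 in WT cells and 6.66, 7.80 and 6.78 in p85α-/- cells. The culture of replicate 2 alone was high, and the other p85α-/- cultures were close to the WT cultures on their arrays. The log2 ratio was 0.50 ± 0.84 (adjusted p = 0.908), and 0.02 without replicate 2. Since no WT culture was well above background, the WT levels are upper limits and the size of this ratio is not settled. The other Mtor probe went the opposite way: it was well above background in 1 WT and 0 p85α-/- cultures and had a ratio of -0.21 ± 0.29, which was -0.04 without replicate 3. The array did not give a direction for Mtor.

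Rptor encodes raptor, the scaffold that brings substrates to mTORC1. Its leading probe read 9.08, 8.61 and 9.24 in WT cells and 10.94, 8.18 and 8.39 in p85α-/- cells. It was high in the p85α-/- culture of replicate 1 and below all WT cultures in the other two. The ratio was 0.20 ± 1.46 (adjusted p = 0.976), and it was -0.64 without replicate 1. The third brightest of 4 Rptor probes was the one past the criteria. It lies on chromosome 11 at positions 120008327 to 120008386 of a build that the scanner file does not state, and belongs to the transcript entry BC060140. It read 6.73, 6.99 and 6.80 in WT cells and 7.79, 8.22 and 7.31 in p85α-/- cells, so that the groups did not overlap. Its ratio was 0.93 ± 0.38 (adjusted p = 0.908), with signal well above background in 1 of 3 WT and 3 of 3 p85α-/- cultures. It did not remain past the criteria after loess normalization (0.67) or median centring (0.83), or without replicate 1 (0.87) or replicate 2 (0.78). With dim probes left out, which kept this probe, its ratio was the same and it was no longer past the criteria (limma, unadjusted p = 0.0554). It came to 3.14 with the scanner software's processed signals. The remaining Rptor probes had ratios of -0.28 and 0.16.

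Rictor encodes rictor, the subunit that defines mTORC2, and was measured by 8 probes. The leading probe read 7.52, 7.22 and 7.27 in WT cells and 7.78, 7.19 and 7.08 in p85α-/- cells. The groups overlapped, and the ratio of 0.01 ± 0.23 (95% confidence interval -0.69 to 0.72, adjusted p = 0.998) was the smallest of the 10 genes. The other 7 probes had mean ratios from -0.27 to 0.93. The highest belonged to a probe that was not well above background in any WT culture and was high on replicate 1 alone (ratios of 2.46, 0.07 and 0.27), and its ratio was 0.17 without that replicate.

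**Figure D2:**
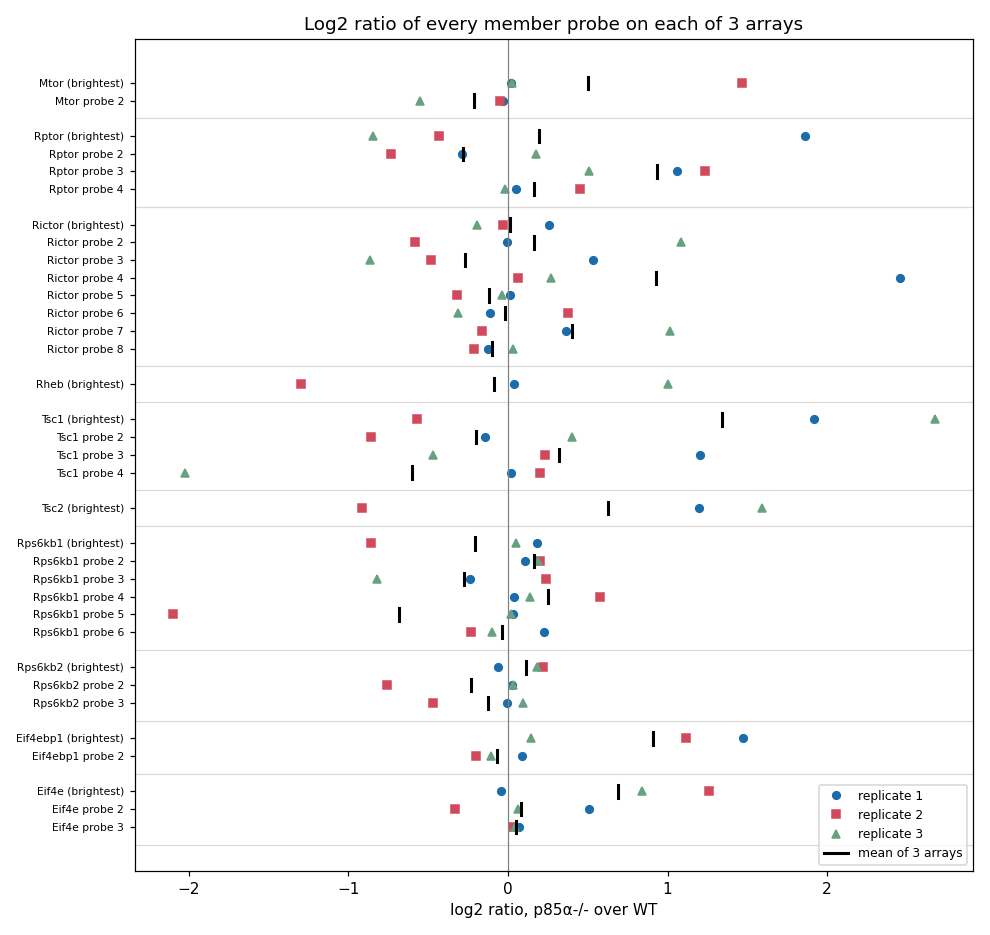
Log2 ratio of p85α-/- over WT (horizontal axis) for each of the 34 probes, grouped by gene and ordered from the brightest. Symbols mark the 3 arrays and black bars the mean. Of the 8 genes with several probes, 7 have mean ratios on both sides of 0 and Eif4e does not, and the third Rptor probe has 3 ratios above 0.5.

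The genes of the switch in front of mTORC1 differed widely between arrays. Tsc1 encodes hamartin, the partner that stabilizes TSC2. Its leading probe read 8.04, 8.26 and 8.32 in WT cells and 9.96, 7.69 and 11.00 in p85α-/- cells. The WT cultures were close together, and the p85α-/- cultures lay above all of them on replicates 1 and 3 and below all of them on replicate 2. The ratio of 1.34 ± 1.70 (adjusted p = 0.908) was the highest mean of the 10 genes, with a 95% confidence interval of -0.81 to 3.50. The other 3 Tsc1 probes did not show this pattern and had mean ratios of -0.20, 0.32 and -0.60.

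Tsc2 encodes tuberin, the part of the complex that stimulates RHEB to hydrolyze GTP. Its only probe read 9.81, 11.52 and 9.65 in WT cells and 11.01, 10.60 and 11.24 in p85α-/- cells. Here the WT culture of replicate 2 was the highest of all 6, while the p85α-/- cultures lay within a narrow range. The ratio was 0.63 ± 1.35 (adjusted p = 0.908).

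Rheb, the GTPase that activates mTORC1, also had 1 probe. It read 8.57, 10.51 and 9.06 in WT cells and 8.61, 9.21 and 10.06 in p85α-/- cells. The highest level again belonged to the WT culture of replicate 2. The ratio was 0.04, -1.30 and 1.002 on replicates 1, 2 and 3, with a mean of -0.09 ± 1.16 (adjusted p = 0.989).

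Ratios of Tsc1, Tsc2 and Rheb thus were below 0 on replicate 2 and above 0 on replicates 1 and 3. These signs were not confined to them: the leading probe of Rps6kb1 had them too (0.18, -0.86 and 0.05). They also occurred among the wider pathway genes described below, for example in Telo2 and Lamtor2. The share of all probes with these signs was not counted. Array by array, the leading probe of Tsc1 exceeded that of Tsc2 by 0.72, 0.34 and 1.09 on the log2 ratio scale (0.72 ± 0.37), but the other 3 Tsc1 probes had mean ratios below that of Tsc2, and the mean over all Tsc1 probes was 0.22 against 0.63; an exact sign-flip permutation test over 3 arrays cannot give a p below 0.25 (two-sided). Without replicate 2, the leading probes of Tsc1 (2.30) and Tsc2 (1.40) were past the criteria, and Rheb turned to 0.52. Without replicate 3, Tsc1 was at 0.67 and Tsc2 at 0.14, and without replicate 1, Tsc1 was at 1.05 and Tsc2 at 0.34, none of these past the criteria. Of 9 neutrophil genes listed, 8 were found and 7 were well above background in all 6 channels, none being at 0. Their median ratio was 1.99, -0.05 and 2.98 on replicates 1, 2 and 3, the lowest value again being on replicate 2. The signs of Tsc1, Tsc2 and Rheb were shared by 2 of the 8: Mpo, which encodes myeloperoxidase (2.90, -3.37 and 5.39), and Elane, which encodes neutrophil elastase (3.54, -1.77 and 4.90). Camp, S100a8 and S100a9 were above 0 on all 3 arrays and lowest on replicate 2, whereas Prtn3, Ltf and Ngp were below 0 on replicate 3. The summed linear level of the list was 8956 to 19130 in WT cells and 3161 to 228100 in p85α-/- cells. Its part in the Tsc1, Tsc2 and Rheb ratios was not tested.

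Sequence upstream of the start of Tsc1, Tsc2 and Rheb is shown because their ratios shared the order of the arrays. That of Eif4e is shown as an example of a gene above 0 on replicate 2. Mtor, Eif4ebp1 and Rps6kb2 were above 0 there too, so the choice of Eif4e sets up no contrast of motifs. Each line gives the 100 bases before the RefSeq start, 5′ to 3′ on the gene's strand, from RefSeq (GRCm38.p6). Capitals mark CACGTG, the E-box bound by MYC and USF factors, and GGGCGG or its complement CCGCCC, the GC box bound by SP1.
Tsc1 (chr2:28641133-28641232, plus strand): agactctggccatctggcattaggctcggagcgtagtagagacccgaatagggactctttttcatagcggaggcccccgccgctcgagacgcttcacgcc
Tsc2 (chr17:24632628-24632727, minus strand): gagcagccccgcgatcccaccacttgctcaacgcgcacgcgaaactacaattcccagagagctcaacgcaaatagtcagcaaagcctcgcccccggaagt
Rheb (chr5:24842362-24842461, minus strand): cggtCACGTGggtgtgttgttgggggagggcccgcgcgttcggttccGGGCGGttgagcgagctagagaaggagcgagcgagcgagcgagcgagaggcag
Eif4e (chr3:138527168-138527267, plus strand): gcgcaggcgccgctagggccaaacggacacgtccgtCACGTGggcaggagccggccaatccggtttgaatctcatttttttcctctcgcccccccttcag
In the 250 bases before each start, Rheb held 1 E-box and the second start of Eif4e held 2, while Tsc1, Tsc2 and the first start of Eif4e held 0. Of 32851 RefSeq windows of this length, 6.02% held CACGTG, which reads the same on both strands, and 32.7% held GGGCGG on either strand. The Tsc1 and Tsc2 windows held 0 of both motifs. Of windows not shown, that of Mtor held 0 E-boxes and 2 GC boxes, and that of Rps6kb1 held 0 of both. These matches describe the letters and not binding. Rps6kb2 and Eif4ebp1 are named only.

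The S6 kinases phosphorylate ribosomal protein S6 and other parts of the translation machinery. The leading probe of Rps6kb1, which encodes S6K1, read 7.62, 8.37 and 7.64 in WT cells and 7.80, 7.51 and 7.69 in p85α-/- cells. The WT culture of replicate 2 stood above the others, which lay close together. The ratio was -0.21 ± 0.57 (95% confidence interval -1.15 to 0.73, adjusted p = 0.937), and it was 0.12 without replicate 2. Of its 6 probes, 2 had a mean ratio above 0 and 4 below, from -0.68 to 0.25. A second probe of the same transcript entry, AK028860, was close to even in each genotype, at 7.18, 7.17 and 7.13 in WT cells and 7.29, 7.37 and 7.32 in p85α-/- cells. The groups did not overlap on that probe, but the ratio was 0.16 ± 0.05 (adjusted p = 0.928), and it pointed opposite to the leading probe.

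Rps6kb2, which encodes S6K2, differed least between arrays. It read 8.60, 9.11 and 8.77 in WT cells and 8.53, 9.34 and 8.95 in p85α-/- cells. The groups overlapped over nearly their whole range, and the ratio was 0.11 ± 0.15 (adjusted p = 0.956). Its 95% confidence interval ran from -0.56 to 0.79 and so held changes in both directions. The other 2 probes had ratios of -0.23 and -0.13, and the mean over all 3 probes was -0.08. Median centring gave 0.64 for the leading probe.

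At the end of the pathway, Eif4ebp1 and Eif4e were the 2 genes whose leading probe had a mean ratio larger than its SD. Eif4ebp1 encodes 4E-BP1, the repressor that holds eIF4E until mTORC1 phosphorylates it. It read 9.17, 10.64 and 10.01 in WT cells and 10.65, 11.75 and 10.15 in p85α-/- cells. Each p85α-/- culture was above the WT culture on its array, although the groups overlapped, the lowest p85α-/- culture lying below the highest WT culture. The ratios were 1.47, 1.12 and 0.14, with a mean of 0.91 ± 0.69 (95% confidence interval -0.15 to 1.97, adjusted p = 0.908). The leading probe was past the criteria with loess normalization (0.96), with median centring (1.60) and without replicate 3 (1.30), but not as reported. A second, dimmer probe of the same transcript, 1 of 3 WT and 3 of 3 p85α-/- cultures being well above background, had a ratio of -0.07 ± 0.15. Of the 16 mast cell markers, all found, 15 likewise had a mean ratio above 0, with medians of 1.20, 1.62 and 1.03 on the 3 arrays. The summed linear level of that list was 45630 to 80230 in WT cells and 129200 to 208800 in p85α-/- cells, with none at 0, and its part in the Eif4ebp1 ratio was not tested.

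Eif4e, the cap-binding protein, read 7.62, 7.57 and 7.43 in WT cells and 7.58, 8.82 and 8.27 in p85α-/- cells. The p85α-/- culture was above all WT cultures on replicates 2 and 3 and within their range on replicate 1. The ratio was 0.69 ± 0.66 (adjusted p = 0.908), and it was 1.05 without replicate 1 and 0.40 without replicate 2. Its other probes had ratios of 0.08 and 0.05, so that all 3 were above 0. By WT mean, the probe at 0.08 was slightly brighter than the leading probe (7.56 against 7.54). The probe at 0.05 was well above background in 0 of 3 WT and 1 of 3 p85α-/- cultures and was at -0.67 with median centring. The difference between the repressor and its target, Eif4ebp1 minus Eif4e on the log2 ratio scale, was 1.52, -0.14 and -0.70 on the 3 arrays (0.22 ± 1.15) and had no common direction. The same held for Rptor minus Rictor (0.18 ± 1.24) and Rps6kb1 minus Rps6kb2 (-0.32 ± 0.68).

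**Figure D3:**
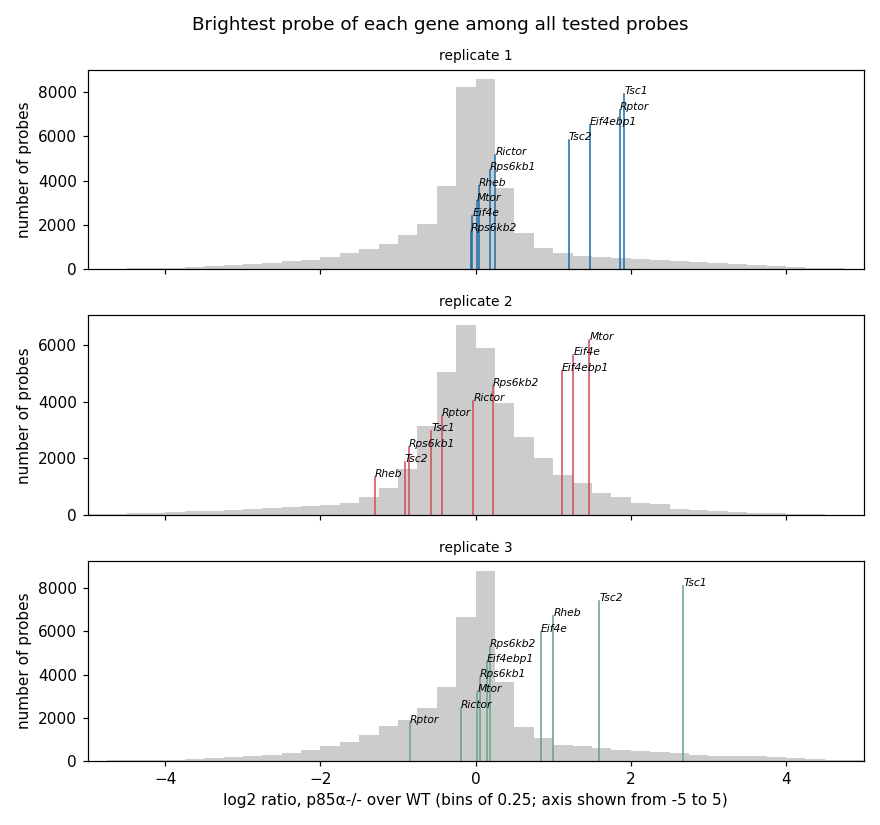
Number of probes (vertical axis) by log2 ratio of p85α-/- over WT (horizontal axis, bins of 0.25) on each array, with vertical lines at the ratio of each gene's leading probe; line height only separates the names. On replicates 1 and 3, 8 of 10 genes lie above 0, and on replicate 2, 4 of 10.

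Across the 10 leading probes, 8 had a mean ratio above 0 and 2 below, with a median of 0.35. Without Rptor and Rictor, 6 of 8 were above 0, with a median of 0.56. Over the brightest probes of all 27951 gene names, 43% were above 0 and the median was -0.07. The count was 8, 4 and 8 of 10 on replicates 1, 2 and 3, and the members' median ratio was 0.22, -0.23 and 0.16, against -0.014, -0.011 and -0.0056 for all probes. For 8 of the 10 genes the mean was not larger than its SD. Levels varied more among the p85α-/- than among the WT cultures for 7 of the 10 genes, where 49.6% of all probes did. The median SD was 0.62 against 0.29, where the SDs over all probes were 0.39 and 0.38. The reference here is all probes and not the brightest of each gene name, so it is not a like comparison. The spread is described over 6 cultures from separate mice and was not tested.

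Different probes of 1 gene often disagreed. Over the 6 channels, 30 of the 63 pairs of probes to the same gene correlated above 0, with r from -0.82 to 0.91 and a median of -0.07. The pairs share samples and dim probes, and several target different transcript entries. By the sign of mean ratios, a different measure, Eif4e was the only member with several probes to have all on 1 side of 0. Among all 8843 gene names with several probes, 45.4% did, but 5824 of these names had 2 probes. Members had up to 8, so this share does not tell whether their disagreement was unusual.

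**Figure D4:**
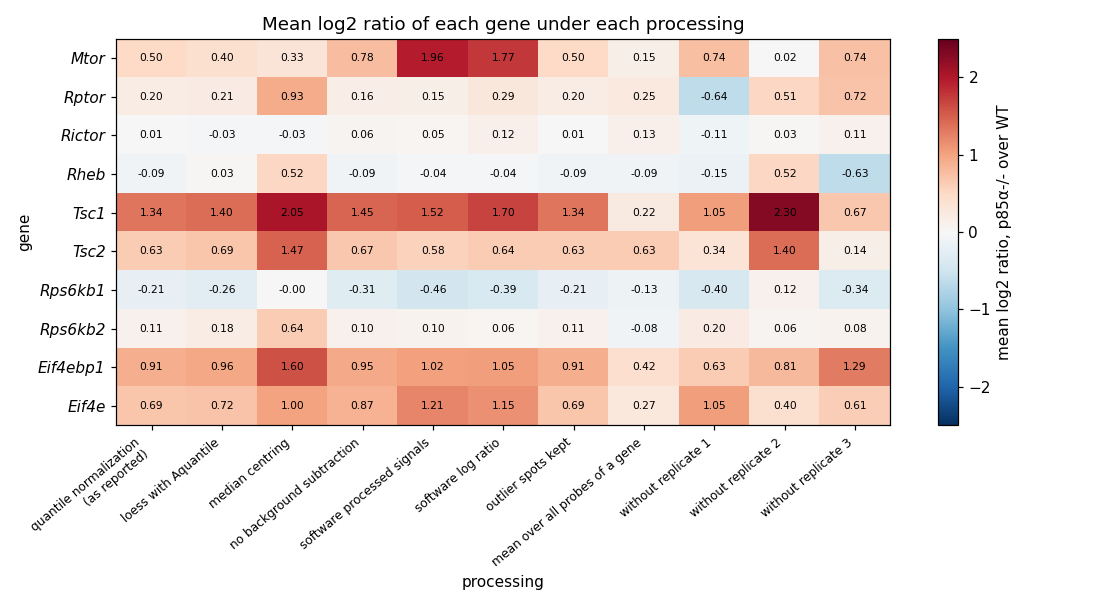
Mean log2 ratio of p85α-/- over WT (color and printed value) of each gene (rows) under each processing (columns). Tsc1, Tsc2, Mtor, Eif4ebp1 and Eif4e stay above 0 in each column shown, while Rheb, Rictor, Rptor, Rps6kb1 and Rps6kb2 change sign in at least 1.

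The genes whose level ran most like a member over the 6 channels were picked by Pearson r among about 25577 probes well above background in all 6 channels. For Mtor these were Mmp1a, Tceal1 and Rnf24 (r = 0.989 to 0.996), sharing a high level in the p85α-/- culture of replicate 2. That culture was the only channel of 6 in which the Mtor probe was well above background, so this r rests on 1 point. For Rps6kb1 they were Casc4, Syn2 and Nptxr (r = 0.997 to 0.998), again with 1 high channel, the WT culture of replicate 2, on which r mostly rests. For Eif4ebp1 they were Scin, BC052046 and the transcript ENSMUST00000091052 (r = 0.983 to 0.989). The 6 points share arrays and dyes, and these values are a description of resemblance.

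The wider pathway was read from a list of 74 genes, all found on the array, 12 of them through RefSeq synonyms or accessions. Of their leading probes, 41 had a mean ratio above 0 and 33 below, with a median of 0.06. None was called, and 5 (4 higher and 1 lower in p85α-/- cells) were past the criteria, where 5.21% of the brightest probes of all gene names were. Ratios had 1 sign on all arrays for 17 of the 74 genes, where 25.9% of the brightest probes of all gene names did. Groups did not overlap for 3 higher and 3 lower, where 4.54% and 5.94% of all probes, not only the brightest of each gene name, did not.

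Upstream of TSC and RHEB, 3 of 19 genes were past the criteria. Stk11 encodes LKB1, the kinase that activates AMPK, and had ratios of 1.98, 3.35 and 4.59 on replicates 1, 2 and 3 (3.31 ± 1.31, adjusted p = 0.859). Its only probe was past the criteria in each of 12 alternatives, with values from 2.66 to 4.01. The mean over probes is 1 of these 12 and repeats the reported ratio. Rhebl1, a relative of Rheb, had a ratio of 1.81 ± 1.01 on its leading probe and 2.27 ± 1.29 on its other probe (adjusted p = 0.908 for both), and its leading probe was not past the criteria without replicate 1 (1.65) or replicate 3 (1.40). Pdpk1 encodes PDK1, which phosphorylates AKT and S6 kinases, and was lower by its leading probe, at -1.07 ± 0.66 (adjusted p = 0.908). Its other 2 probes were above 0 (0.61 and 0.27), and median centring gave 0.08. It was past the criteria in 4 of 12 alternatives, and not without replicate 1 (-0.82) or replicate 3 (-0.96). Of this list, Prkab1, a subunit of AMPK, had the next lowest ratio with 1 sign on all arrays, -0.56 ± 0.35.

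Among the complex partners and inhibitors, 1 of 11 was past the criteria: Fkbp8, which encodes FKBP38, had ratios of 1.85, 2.51 and 1.26 (1.87 ± 0.62, adjusted p = 0.874) and was past the criteria in each of 12 alternatives. Among the cap-binding and scanning factors it was 1 of 16, Eif4h, a partner of the helicase eIF4A, which had ratios of 2.85, 1.75 and 2.35 (2.32 ± 0.55, adjusted p = 0.763). Fkbp8 and Eif4h, like Stk11, had 1 probe each, so other probes could not be compared. In the fit without the pairing by array, the ratio of Eif4h was the same and it was not past the criteria (limma, unadjusted p = 0.0646). Amino acid sensing at the lysosome had 0 of 18 and S6 kinase substrates and relatives 0 of 10, the latter including Ulk1, the autophagy kinase, at -0.65 ± 0.52 with 1 sign on all arrays.

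**Figure D5:**
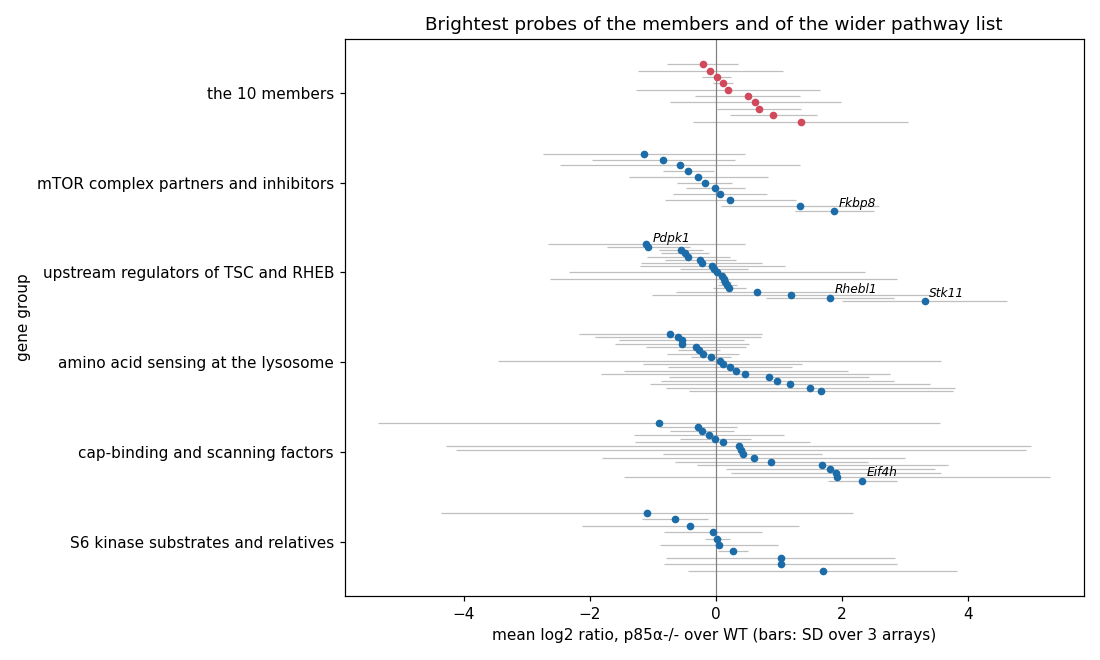
Mean log2 ratio of p85α-/- over WT (horizontal axis) with the SD over 3 arrays for the leading probes of the 10 members and of 74 further pathway genes in 5 groups. The 5 named genes are those past 1.5-fold with an unadjusted p under 0.05, and most bars reach across 0.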

How the data were processed

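Gene expression was measured on 3 Agilent two-color arrays of the whole mouse genome, each with 1 WT culture (Cy3) and 1 p85α-/- culture (Cy5) from separate mice. The scanner output of each array was deposited as written by Agilent Feature Extraction (version 9.5.1.1, per the file headers). Its deposited intensity values are the mean spot signal and the median of the local background, not normalized, beside processed intensity values and a log10 ratio computed by that software. The authors' own table of log10 ratios holds 1 column per array. In it, 40929 of 40929 single-spot probes of replicate 1 held their own probe's scanner ratio (within 1.5e-05), but 190 of replicate 2 and 226 of replicate 3. Most ratios of replicates 2 and 3 stood in their columns on other rows (40698 and 40704 found). It was used only for counts without gene names. Its rows join different probes across arrays, so such counts do not describe single probes. No other per-sample columns were found (0).

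With limma 3.58.1 under R 4.3.3, mean signals were background corrected by normexp (offset 50), after which the 6 channels were quantile normalized as log2 values. Spots that were controls or outliers were left out and spots of a probe averaged, which left 41157 of 41174 probes. Log2 ratios of the 3 arrays entered an intercept-only model and were tested with eBayes and Benjamini-Hochberg adjustment over all 41157 probes, two-sided. The pairing comes from hybridization of both cultures to 1 array. The code of the fit was run on simulated data. Its pass mark was set at a spread far below that observed, so it does not speak to power with 3 arrays. Quantile normalization gives all 6 channels the same distribution, so a shift shared by most genes would not be seen. PCR amplification of cDNA may distort levels, and 3 arrays limit the precision. No spot was saturated (0 in every channel).

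A gene's leading probe was the brightest over 6 channels. All probes of the 10 genes were described. From the pathway list, genes past 1.5-fold with an unadjusted p under 0.05 were named, and the 3 highest and 3 lowest among bright leading probes with 1 sign on all arrays. The members and lists were chosen with earlier results of these data known. Alternatives were loess normalization, median centring, other background corrections, the software's ratios, outlier spots kept, dim probes left out, no pairing, the methods' t-test, the mean over probes, and leaving out each replicate. RefSeq tables (GRCm38.p6) gave synonyms and sequences.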

Additional observations from a re-analysis of the deposited data

How the results depend on the processing

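No probe on the array was called at an adjusted p under 0.05 in any of the fits run (0 in each, the lowest adjusted p between 0.368 and 1). The count of all probes past 1.5-fold with an unadjusted p under 0.05 was 1829, 1125 with the methods' t-test unpaired and 819 paired, and 1555 to 3165 when 1 replicate was left out, the highest without replicate 2. Without the pairing by array (no replicate block) it was 1809, and 1 member probe, that of Rptor, was again past the criteria. The share of these probes that were higher in p85α-/- cells was 62.6%, but 47.5% without replicate 2 and 91.2% with median centring, under which the median over all probes was 0.09 and not -0.05. The pathway genes above 0 then were 58 in place of 41, within the range of 1.5 times. Of the members' probes, 1 was past the criteria, but 0 with dim probes left out (the Rptor probe stayed in that fit, at 0.93), 0 with the paired t-test and 0 to 2 when 1 replicate was left out: 0 without replicate 1, Tsc1 and Tsc2 without replicate 2, Eif4ebp1 and Rptor without replicate 3. With loess or median centring it was Eif4ebp1 in place of Rptor.

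Of 119 values of member genes under alternatives, 105 kept direction and side of the criteria, 5 newly passed them and 9 turned sign. Rheb turned to 0.034 with loess and 0.515 with median centring, and ranged from -0.63 to 0.52 when 1 replicate was left out (above 0 without replicate 2). Rictor turned to -0.0281 with loess and -0.0286 with median centring, and ranged from -0.11 (without replicate 1) to 0.11. Rps6kb1 ranged from -0.40 to 0.12 (without replicate 2) and Rptor from -0.64 (without replicate 1) to 0.72. Rps6kb2 turned to -0.0829 as the mean over probes. Of the pathway genes, Pdpk1 turned to 0.0834 with median centring. The cause was not tested. The members above 0 numbered 6 to 10 when 1 replicate was left out. Signals not well above background in a whole group limited what some probes of Mtor, Rictor, Rps6kb1 and Eif4e could show.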
